A study of Mus musculus with 2 samples.

Results

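Glypicans are cell-surface core proteins that carry heparan sulfate chains, and heparan sulfate sulfotransferases are the Golgi enzymes that decorate those chains. A set of 10 of these genes was followed among the 32227 genes of both count tables, namely the glypicans Gpc3, Gpc4, Gpc5 and Gpc6, the N-deacetylase/N-sulfotransferases Ndst1, Ndst2, Ndst3 and Ndst4, and the 6-O-sulfotransferases Hs6st1 and Hs6st2. The genes were chosen by their raw counts across the deposited clusters and across the classes of thick ascending limb (TAL) nuclei used here, so their levels are given as a description, with no test.

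The data are single-nucleus RNA-seq of male mouse kidney, with 1 library of cortex and 1 library of medulla and no replicate. Both libraries came from the same kind of animal, labelled strain B6, genotype WT and age 12 with no unit, and the number of animals is not given in the sources used here. These mice carried a tamoxifen-inducible Cre driven by the NKCC2 gene (Slc12a1) and a Sun1-sfGFP tag on the nuclear envelope, all animals received tamoxifen, and GFP-bearing nuclei were sorted. Cortex was a superficial strip of each slice and medulla was all remaining tissue, so deep cortex lies in the medulla library. Region and library are the same split and cannot be told apart.

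The cortex library held 5442 filtered barcodes and the medulla library 8121, with medians of 2427 and 2430 counts per barcode and no barcode (0) in common. A barcode was taken as TAL with at least 10 counts of Slc12a1, the NKCC2 cotransporter. TAL barcodes were then called macula densa (MD) with at least 3 counts of Nos1 plus Pappa2, otherwise TAL-β with at least 2 counts of Tmem52b, otherwise TAL-γ with at least 1 count of Tmem207, and otherwise TAL-α. This gave 2795 TAL-α, 1493 TAL-β, 277 TAL-γ and 653 MD barcodes in cortex, and 4900, 571, 2418 and 78 in medulla. Levels are summed counts of a class scaled to a library total of 1000000 (CPM), with 95% exact Poisson intervals that cover counting error only.

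The classes were checked against marker genes and against the deposited clusters, and classes and clusters did not match one to one. Of the 277 cortical TAL-γ barcodes, 177 sat in cluster 2 with 632 TAL-β barcodes, and this cluster carried 4 of 6 TAL-β markers and also 4 of 6 TAL-γ markers. The TAL-α class takes all barcodes without a class count, and 170 of its barcodes in cortex and 28 in medulla sat in the cluster that carried 6 of 6 MD markers. Clusters led by proximal tubule, podocyte, distal convoluted tubule or collecting system genes held 14.4% of TAL-α, 23.5% of TAL-β, 21.3% of TAL-γ and 7.66% of MD barcodes in cortex. In medulla those shares were 2.78%, 7.88%, 4.43% and 3.85%.

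Heparan sulfate is a long sugar chain that binds growth factors, morphogens and enzymes through its sulfate groups. Glypicans hold the chain at the outer face of the membrane by a lipid anchor. NDST enzymes act early, replacing acetyl groups on glucosamine by sulfate, and the epimerase and the 2-O-, 6-O- and 3-O-sulfotransferases work mostly on the stretches that NDST enzymes have opened. In the kidney, heparan sulfate is best known from the glomerular basement membrane and from branching of the ureteric bud. The TAL reabsorbs salt and divalent cations, and the MD is the plaque of cells at its end that senses luminal salt and controls renin release and filtration.

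Ndst4, Gpc5 and Gpc3 showed wide differences between classes. Ndst4 reached 909 CPM in MD barcodes of cortex and 1349 CPM in those of medulla, against 65.1 CPM or less in every other class. Gpc5 was at 1313 CPM in medullary TAL-γ and at 47.8 CPM in cortical TAL-α, a span across both class and library. Within a library, TAL-γ over TAL-α was 2.44 in medulla and 3.75 in cortex, whereas medulla over cortex within TAL-α was 11.3. Gpc3 was at 183 to 205 CPM in MD and at 40.4 to 49.0 CPM in TAL-β and TAL-γ of both libraries. Ndst2, Ndst3 and Hs6st2 stayed low in every class, with at most 24.5, 2.41 and 4.55 CPM.

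**Figure D1:**
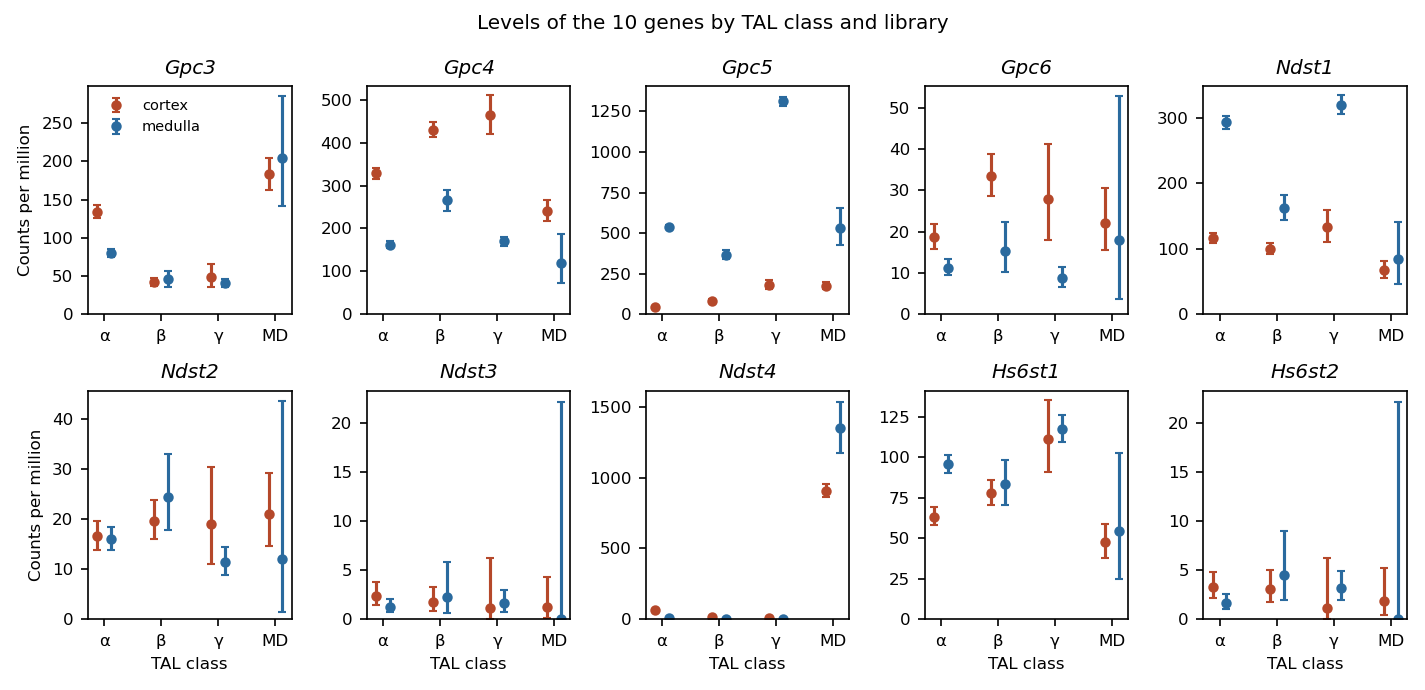
Level of each of the 10 genes in CPM (vertical axis, a scale of its own in each panel) by TAL class (horizontal axis), in the cortex library (red) and the medulla library (blue). Points are summed counts of a class and bars are 95% exact Poisson intervals; Ndst4 stands at 909 and 1349 CPM in MD, and Gpc5 at 1313 CPM in medullary TAL-γ.

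For each class, a gene was counted as past 2-fold where its CPM ratio to the other TAL barcodes of the library was at least 2 or at most 0.5, among genes with an expected count of at least 5 on the smaller side. In cortex, 2 of the 10 genes were past 2-fold in TAL-α (6.95% of all genes tested) and 2 of 10 in TAL-β (6.61%). In TAL-γ it was 3 of 8 (5.77%), and in MD 2 of 8 (11.8%). In medulla the counts were 3 of 10 in TAL-α (5.33%), 2 of 8 in TAL-β (6.67%), 2 of 10 in TAL-γ (5.36%) and 2 of 5 in MD (21.7%). Those 2 in MD were Gpc3 and Ndst1, since Ndst4 fell short of the expected count there and was not counted. Between the libraries, medulla over cortex, 5 of 10 were past 2-fold in TAL-α (16.2%), 3 of 9 in TAL-β (13.3%), 4 of 7 in TAL-γ (14.6%) and 1 of 6 in MD (9.99%). The genes were selected on these contrasts, so nothing is read from the counts.

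Gpc3 is the glypican whose loss causes an overgrowth syndrome with cystic and dysplastic kidneys. In cortex, Gpc3 was at 134 CPM in TAL-α, 42.1 in TAL-β, 49.0 in TAL-γ and 183 in MD. In medulla the levels were 80.0, 45.5, 40.4 and 205 CPM in the same order. MD and TAL-α were thus the high classes in both libraries, and the intervals of TAL-β and TAL-γ overlapped. Set against the other TAL barcodes, the TAL-β ratio for Gpc3 was 0.312 in cortex (0.269 to 0.360, 95% counting interval as for all ratios here), and it was 0.239 without clusters of other cell types and 0.191 with 1500 to 4000 counts per barcode. The medullary TAL-β ratio was 0.672 (0.529 to 0.842). The ratio of MD to the others was 1.94 in cortex (1.70 to 2.19) and 3.16 in medulla (2.18 to 4.44). A count of Gpc3 was found in 29.7% of cortical MD barcodes and in 9.51% of cortical TAL-β barcodes, and with each barcode thinned to 1000 counts these shares were 16.7% and 2.88%.

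Across the deposited clusters, Gpc3 was at 236 and 256 CPM in the MD-like clusters of cortex and medulla and at 166 CPM in the main TAL-α-like cluster of cortex. It was at 28.6 CPM in cluster 2 and 36.9 CPM in the TAL-β-like cluster 4 of cortex, at 42.2 CPM in the TAL-β-like cluster of medulla and at 31.1 CPM in its TAL-γ-like cluster. The medullary clusters made almost wholly of TAL-α barcodes were not uniform, with 138 CPM in cluster 1, 70.7 in cluster 3 and 36.8 in cluster 4, so that the last lay no higher than the TAL-β-like cluster.

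Gpc4, the neighbour of Gpc3 on the X chromosome and a glypican of neurons and early progenitors, had TAL-β high and MD low in both libraries. Its cortical levels were 329 CPM in TAL-α, 430 in TAL-β, 463 in TAL-γ and 240 in MD. Its medullary levels were 163, 265, 170 and 120 CPM. The ratio of TAL-β to the other TAL barcodes was 1.32 in cortex (1.25 to 1.39) and 1.61 in medulla (1.46 to 1.78), and MD was the lowest class in both libraries, although in medulla its interval overlapped those of TAL-α and TAL-γ. In cortex the intervals of TAL-β and TAL-γ overlapped.

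Gpc4 levels were higher in proximal tubule-like barcodes than in the TAL, although barcodes below the TAL gate held 9.22% of its counts in cortex and 13.9% in medulla. In barcodes of proximal tubule-like clusters with at most 2 counts of Slc12a1, the cortical Gpc4 level was 961 CPM over 83 barcodes, of which 92.8% had a count. The medullary level was 1145 CPM over 100 barcodes, of which 96% had a count. Proximal tubule-like clusters 6, 7 and 13 of cortex held 855, 729 and 1097 CPM, whereas the TAL-α-like cluster 1 held 164 CPM. Clusters 6 and 7 also carried TAL transcripts, with medians of 39 and 37 counts of Slc12a1, against 0 in cluster 13. Their median depths were 6342 and 5492 counts, and only 27 of 351 and 7 of 328 barcodes fell below the TAL gate. Whether they hold mixtures of nuclei was not tested. Without the clusters led by other cell types, the cortical levels were 175 CPM in TAL-α, 252 in TAL-β, 258 in TAL-γ and 137 in MD. The medullary levels were then 135, 226, 136 and 72.6 CPM. TAL-β remained above TAL-α in both libraries, with a ratio of TAL-β to the other TAL barcodes of 1.44 in cortex.

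**Figure D2:**
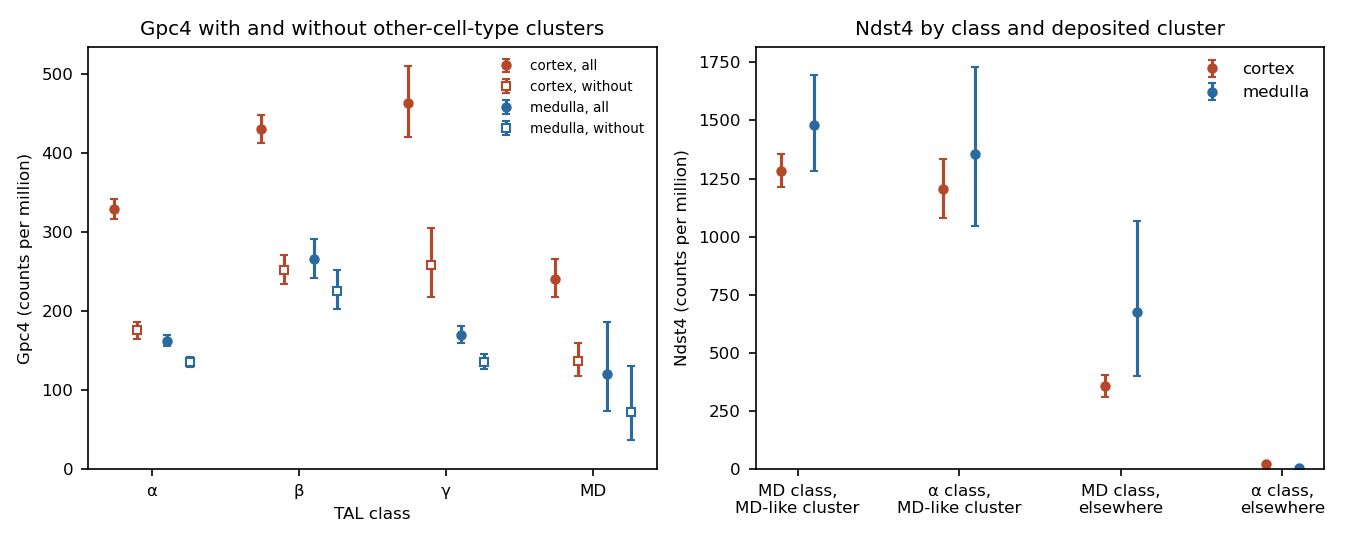
Left, Gpc4 in CPM by TAL class with all barcodes (filled) and without barcodes of clusters led by other cell types (open). Right, Ndst4 in CPM in MD-class and TAL-α-class barcodes inside and outside the MD-like cluster; bars are 95% exact Poisson intervals, red is cortex and blue is medulla. Cortical Gpc4 fell to 175 CPM in TAL-α and 252 CPM in TAL-β, and Ndst4 was at 1203 CPM in cortical TAL-α-class barcodes of the MD-like cluster.

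Gpc3 and Gpc4 lie on the same strand of the X chromosome (GRCm39), at chrX:51361303-51703137 and chrX:51139255-51254262, 107 kb apart with no protein-coding gene between them. Their start regions are shown since the genes are neighbours with unlike levels across the classes. The RefSeq windows run from 250 bases before to 50 bases after the start (GRCm38.p6, minus strand, chrX:52613925-52614224 and chrX:52164874-52165173). Capitals mark GGGCGG on either strand, which 35.7% of all 32851 such windows hold.
Gpc3: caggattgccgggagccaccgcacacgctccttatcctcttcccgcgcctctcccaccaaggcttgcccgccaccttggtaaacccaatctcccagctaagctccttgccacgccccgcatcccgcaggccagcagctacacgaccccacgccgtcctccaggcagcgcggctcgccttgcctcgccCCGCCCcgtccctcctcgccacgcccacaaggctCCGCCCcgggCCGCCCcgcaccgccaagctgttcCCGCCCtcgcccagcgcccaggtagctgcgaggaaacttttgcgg
Gpc4: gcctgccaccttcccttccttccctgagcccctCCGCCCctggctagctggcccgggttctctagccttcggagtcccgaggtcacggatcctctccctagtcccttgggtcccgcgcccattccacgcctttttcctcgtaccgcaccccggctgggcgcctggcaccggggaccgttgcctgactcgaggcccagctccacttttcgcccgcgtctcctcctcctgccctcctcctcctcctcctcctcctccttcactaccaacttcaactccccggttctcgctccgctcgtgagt
Both are rich in GC, at 70.7% and 66.7% against a median of 52.7%, and they hold 4 and 1 matches of GGGCGG. Neither holds TATAAA or GTTAAT on either strand.

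Gpc5 is a glypican of the kidney glomerulus and nervous system that has been tied to nephrotic syndrome in people. In cortex it was at 47.8 CPM in TAL-α, 83.8 in TAL-β, 179 in TAL-γ and 176 in MD. In medulla it was at 537 CPM in TAL-α, 367 in TAL-β, 1313 in TAL-γ and 530 in MD. The medullary MD level was 366 CPM in the 71 barcodes inside the MD-like cluster and 1387 CPM in the 7 outside it, which held 37 of the 88 counts. Medullary TAL-γ was the highest class (1285 to 1342 CPM), the intervals of medullary TAL-α and MD overlapped, and so did those of cortical TAL-γ and MD. The ratio of TAL-γ to the other TAL barcodes was 2.54 in medulla (2.46 to 2.63) and 2.39 in cortex (2.02 to 2.83). The paper describes TAL-γ cells as exclusive to the medulla. Of the 277 cortical barcodes of this class, 177 sat in cluster 2 with TAL-β barcodes.

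In medullary TAL-γ, 70.8% of the 2418 barcodes had a count of Gpc5, or 56.5% after thinning to 1000 counts, at a median depth of 2426.5 counts. In proximal tubule-like barcodes of that library the share was 7% at a median depth of 4571 counts, with 17.3 CPM. RNA in medullary barcodes of at most 100 counts, which stands for free RNA, held Gpc5 at 643 CPM. The most heavily loaded TAL-γ barcode carried 26 counts, and the 95th percentile was 11.

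The 177 cortical TAL-γ barcodes of cluster 2, which carried TAL-β and TAL-γ markers alike, held 98.3 CPM of Gpc5, beside 115 CPM in the TAL-β barcodes of the same cluster. Among cortical clusters, Gpc5 was highest, at 325 CPM, in cluster 9, which carried 6 of 6 podocyte markers and also markers of endothelium, collecting system and stroma. It was at 186 CPM in the MD-like cluster and at 153 CPM in cluster 5, which carried 4 of 6 TAL-α markers and also 4 of 6 TAL-γ markers (Ano4, Kcnt1, Prox1 and Sgcz). The main TAL-α-like cluster 1 held 28.7 CPM, so that cluster 5 was 5.32-fold above it (4.08 to 6.98). The 371 TAL-α barcodes of cluster 5 alone held 82.0 CPM.

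Within the medulla library, Gpc5 also varied between clusters of a class. Clusters 1, 3 and 4, each made almost wholly of TAL-α barcodes, held 64.5, 433 and 716 CPM. Cluster 4 was thus 11.1-fold above cluster 1 (9.74 to 12.7), a pair chosen after the values were seen. Cluster 2 held 1813 CPM and mixed 762 TAL-α with 539 TAL-γ barcodes, and its TAL-α barcodes alone stood at 1500 CPM. The TAL-γ-like cluster 5 held 1537 CPM and the TAL-β-like cluster 6 held 188 CPM, an 8.16-fold difference (7.34 to 9.09). The 235 TAL-γ barcodes that sat in cluster 6 were at 176 CPM, beside 187 CPM in its 451 TAL-β barcodes.

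**Figure D3:**
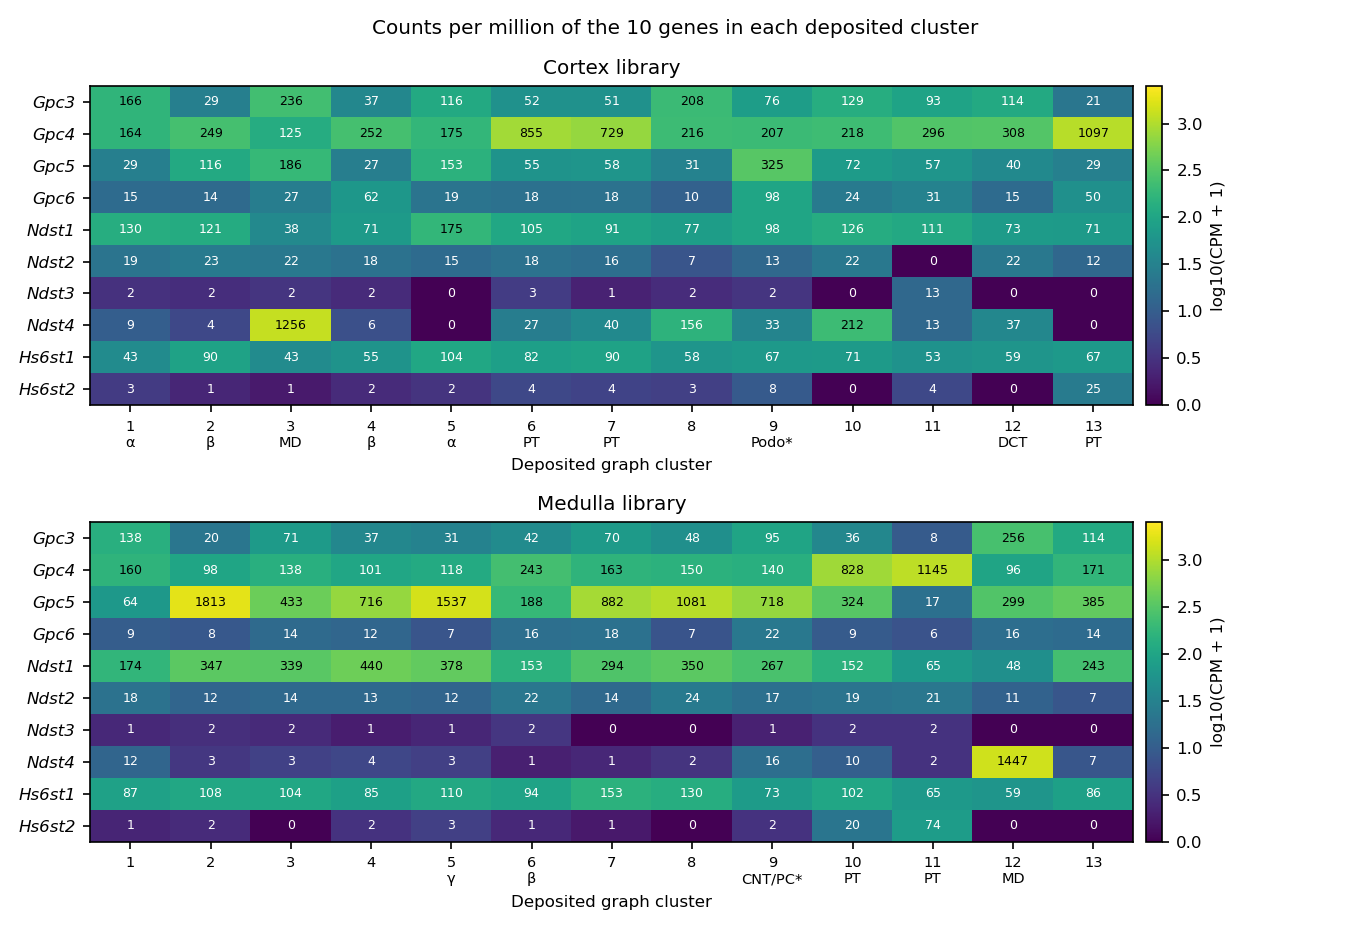
CPM of the 10 genes (rows) in the 13 deposited clusters (columns) of each library, with the value printed in each cell and the colour giving log10(CPM + 1). Letters under a cluster number give the cell type whose marker list it carried (PT, proximal tubule; Podo*, podocyte markers mixed with others; DCT, distal convoluted tubule; CNT/PC*, connecting tubule and principal markers mixed with others), and no letters mean that fewer than 3 markers of any list were raised, while cortex cluster 2 carried as many TAL-γ as TAL-β markers and cortex cluster 5 as many TAL-γ as TAL-α markers. Ndst4 peaks at 1256 and 1447 CPM in the MD clusters, Gpc5 at 1813 and 1537 CPM in medulla clusters 2 and 5, and Gpc4 in the PT clusters.

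Gpc5 spans 1433 kb at chr14:115329647-116762591 on the plus strand (GRCm39), of which exons cover 0.330%, so that most of its sequence is intronic. It overlaps 6 other annotated genes, none (0) of them protein-coding and 5 on the opposite strand. Whether counting used strand is not given in the sources used here. Gpc6 follows on the same strand, 400 kb downstream. The RefSeq window at the Gpc5 start (GRCm38.p6, plus strand, chr14:115091965-115092264) is shown because the Gpc5 level was higher in the medulla library in all 4 classes. Capitals mark TATAAA, held by 13.6% of windows, and GGGCGG, each on either strand.
Gpc5: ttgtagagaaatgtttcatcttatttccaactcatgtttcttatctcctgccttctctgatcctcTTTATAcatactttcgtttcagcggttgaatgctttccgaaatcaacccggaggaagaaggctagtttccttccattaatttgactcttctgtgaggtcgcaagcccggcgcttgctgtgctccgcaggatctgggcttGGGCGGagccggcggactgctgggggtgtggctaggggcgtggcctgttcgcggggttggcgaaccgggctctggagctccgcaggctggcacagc
It holds 1 match of each, with a GC content of 54.7% and 17 CG pairs against medians of 52.7% and 7.

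Gpc6, a glypican of growth plates and synapses, was a low gene. Its levels in cortex were 18.6 CPM in TAL-α, 33.5 in TAL-β, 27.8 in TAL-γ and 22.2 in MD, and in medulla 11.3, 15.4, 8.81 and 18.1 CPM. TAL-β exceeded the other TAL barcodes 1.67-fold in cortex (1.36 to 2.06), and in medulla the ratio was 1.46 with an interval that included 1 (0.937 to 2.19), and it was 3.55 with TAL-γ asked before TAL-β. The cortical clusters that hold most TAL-β barcodes were unlike, with 62.4 CPM in cluster 4, which is led by Irx5 and Nrxn3, and 13.8 CPM in cluster 2. Although Gpc5 and Gpc6 are neighbours, those 2 clusters had them the other way round, with Gpc5 at 27.1 CPM in cluster 4 and 116 CPM in cluster 2.

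Ndst4 is the NDST isoform with strong sulfotransferase and weak deacetylase activity, and it is known mainly from brain. In cortex it was at 65.1 CPM in TAL-α, 12.2 in TAL-β, 8.91 in TAL-γ and 909 in MD. In medulla it was at 11.0 CPM in TAL-α, 1.14 in TAL-β and 1349 in MD, and 23 counts in 2418 barcodes gave the TAL-γ level. The MD levels stood apart in both libraries, with intervals of 863 to 955 and 1178 to 1538 CPM. Over the other TAL barcodes, MD was 21.7-fold higher in the cortex library, or 18.9-fold without clusters of other cell types, and 171-fold higher in the medulla library (139 to 211) from 224 counts in 78 MD barcodes and 159 counts elsewhere. Of cortical MD barcodes 74.4% had a count, or 57.1% after thinning, at a median depth of 1883 counts. For medullary MD barcodes the shares were 80.8% and 62.8%, at a median depth of 1995.5. In proximal tubule-like barcodes there was a count in 0 of 83 in cortex, which allows a level of up to 7.61 CPM, and in 1 of 100 in medulla.

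Outside the MD class, Ndst4 was high in the remaining barcodes of the MD-like cluster. The 170 cortical TAL-α barcodes inside the MD-like cluster held 1203 CPM, and the 2625 elsewhere held 21.4 CPM. The corresponding medullary values were 1357 CPM in 28 barcodes and 5.68 CPM in 4872. Over all TAL barcodes outside both the MD class and the MD-like cluster, the Ndst4 level was 17.1 CPM for the cortex library and 4.67 CPM for the medulla library. Conversely, the 116 cortical MD-class barcodes outside the MD-like cluster held 355 CPM. With TAL barcodes of the MD-like cluster that fell short of the MD threshold left out, an alternative added after these values were seen, the ratio of MD to the others was 53.1 in cortex and 289 in medulla. The MD-like cluster held 77.3% of all Ndst4 counts of the cortex library in 715 of 5442 barcodes, and 70.6% of those of the medulla library in 99 of 8121. Free RNA of the cortex library held Ndst4 at 135 CPM, above the TAL-β and TAL-γ levels, and its part in the low classes was not tested. Without Scrublet doublets, the cortical TAL-β ratio to the other TAL barcodes was 0.0217 in place of 0.0628.

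Clusters 8 and 10 of cortex, TAL clusters that carried 2 of the 6 MD markers each, held Ndst4 at 156 and 212 CPM. Cluster 10 mixed 49 MD barcodes with 60 TAL-β and 25 TAL-α barcodes at a median of 4585 counts per barcode, above every other cluster without markers of another cell type. All remaining clusters of either library held 40.0 CPM or less.

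Ndst1 is the broadly expressed NDST isoform, needed for lung, skull and forebrain development. In cortex it was at 116 CPM in TAL-α, 99.6 in TAL-β, 134 in TAL-γ and 67.8 in MD. In medulla it was at 293, 162, 320 and 84.3 CPM. MD was the lowest class in both libraries, with a ratio to the other TAL barcodes of 0.609 in cortex (0.499 to 0.737), or 0.458 without clusters of other cell types, and 0.291 in medulla (0.159 to 0.488). In the MD-like clusters it was at 38.5 CPM in cortex and 48.1 in medulla, the lowest value of any cluster in each library. Medullary TAL-γ exceeded the other TAL barcodes 1.17-fold (1.10 to 1.23), and the ratio was 1.03 when TAL-γ was asked before TAL-β. Cluster 4 of medulla, almost wholly TAL-α, held 440 CPM, beside 378 in the TAL-γ-like cluster 5 and 347 in the mixed cluster 2. The other clusters made almost wholly of TAL-α barcodes, 1 and 3, held 174 and 339 CPM. Ndst1 overlaps the protein-coding gene Rps14 on the opposite strand, so reads of the pair can be told apart only if strand was used.

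Ndst2, an isoform best known from mast cells, was at 16.6 to 21.0 CPM in the cortical classes and at 11.4 to 24.5 CPM in the medullary ones. Its intervals overlapped among the cortical classes, and in medulla TAL-β exceeded the other TAL barcodes 1.69-fold (1.20 to 2.34) whereas TAL-γ was at a ratio of 0.666 (0.504 to 0.872). Ndst3, mainly a brain isoform, had 62 counts in both libraries together, at 2.41 CPM or less in every class. None (0) of its counts fell in the 78 medullary MD barcodes, which allows up to 18.1 CPM. Ndst3 was too sparse for any order of the classes.

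Hs6st1 is the main 6-O-sulfotransferase of most tissues. In cortex it was at 63.4 CPM in TAL-α, 77.8 in TAL-β, 111 in TAL-γ and 47.4 in MD, and in medulla at 95.5, 83.7, 117 and 54.2 CPM. TAL-γ was the highest class and MD the lowest in both libraries. In medulla the MD level rested on 9 counts. Its ratio there was 0.567 to TAL-α (0.259 to 1.08) and 0.648 to TAL-β (0.290 to 1.26), so both intervals included 1. The ratio of TAL-γ to the other TAL barcodes was 1.67 in cortex (1.35 to 2.05) and 1.26 in medulla (1.15 to 1.37), and that of MD was 0.660 (0.518 to 0.830) and 0.535 (0.244 to 1.02). Among cortical clusters it went from 43.0 CPM in TAL-α-like cluster 1, beside 43.1 in the MD-like cluster, to 104 CPM in cluster 5.

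Hs6st2 was nearly absent from the TAL, with 46 counts in 5218 cortical and 48 counts in 7967 medullary TAL barcodes. It was found instead in proximal tubule-like barcodes of the medulla library, with 69.2 CPM and a count in 19% of 100 barcodes. Free RNA held it at 27.8 CPM in the cortex library and at 24.3 CPM in the medulla library, above the TAL level of 2.93 and 2.36 CPM. Proximal tubule-like cluster 11 of medulla held 73.9 CPM, and the highest cortical value was 24.9 CPM in cluster 13, also proximal tubule-like. No count (0) of Hs6st2 fell in medullary MD barcodes.

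The levels also depended on where each class threshold stood. Ndst4 in cortex was at 12.7 CPM in barcodes with 0 counts of Nos1 plus Pappa2, at 231 CPM with 1 count, at 651 CPM with 2 counts and at 837 CPM with 3 counts. Barcodes just outside the MD threshold were therefore nearer to those just inside it than to those at 0. With 10 or more counts Ndst4 was at 972 CPM. In medulla the step was from 799 CPM at 2 counts to 1349 CPM at 3 counts, with 11 barcodes in each bin. Ndst1 in cortex was at 52.9 CPM just outside and 103 CPM just inside that threshold.

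Gpc5 in medulla rose from 537 CPM with 0 counts of Tmem207 to 1167 CPM with 1 count, 1226 with 2, 1296 with 3 and 1375 with 4 or more. The corresponding cortical values were 47.8, 121, 155, 137 and 273 CPM. At the TAL-β threshold, Gpc4 in cortex was at 401 CPM with 1 count of Tmem52b and 404 CPM with 2, so the barcodes on either side were alike. Gpc3 was at 73.6 and 54.5 CPM on those sides, with 135 CPM at 0 counts and 38.9 CPM at 3 or more. At the TAL gate itself, Gpc4 in cortex was at 695 CPM with 3 to 9 counts of Slc12a1 and at 510 CPM with 10 to 14.

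**Figure D4:**
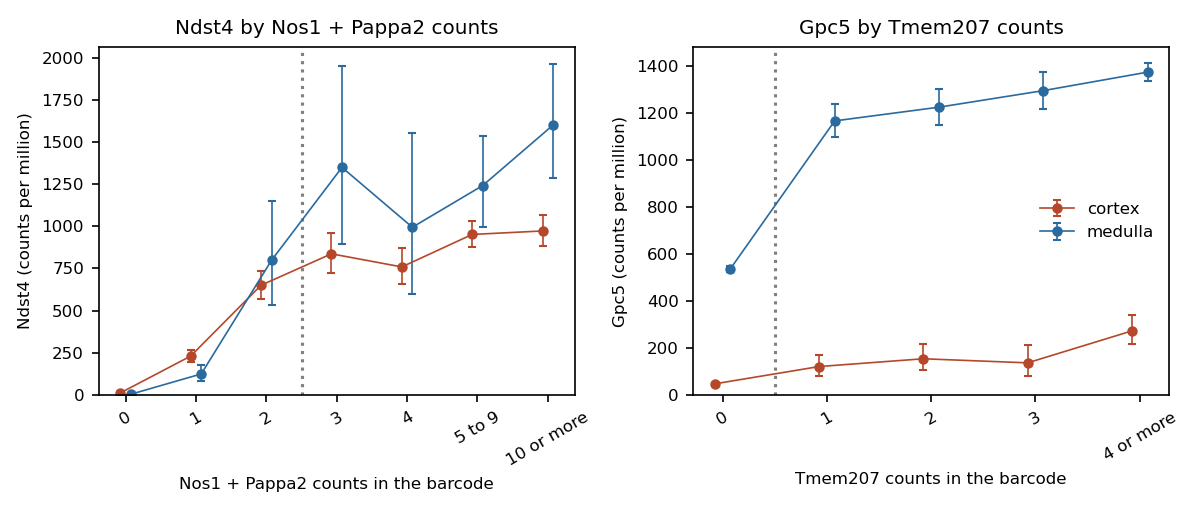
Left, Ndst4 in CPM by the number of Nos1 plus Pappa2 counts in a TAL barcode. Right, Gpc5 in CPM by the number of Tmem207 counts in TAL barcodes that are neither MD nor TAL-β. Red is cortex, blue is medulla, bars are 95% exact Poisson intervals, and dotted lines mark the class thresholds; cortical Ndst4 was at 651 CPM just left of the threshold and medullary Gpc5 went from 537 to 1167 CPM across it.

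Gpc5 was higher in the medulla library in all 4 classes. Medulla over cortex, its ratio was 11.3 in TAL-α (10.1 to 12.5), 4.38 in TAL-β (3.88 to 4.96), 7.32 in TAL-γ (6.26 to 8.61) and 3.02 in MD (2.35 to 3.84). Inside the MD-like clusters, the cortical MD barcodes were at 191 CPM and the medullary ones at 366 CPM, a smaller step. The 51 medullary counts sat in 13 of 71 barcodes, a share of 18.3%, beside 14.2% of the cortical barcodes. Gpc5 in the TAL-α barcodes of these clusters leaned the other way, with overlapping intervals. It was at 104 CPM (33.9 to 244) from 5 medullary counts, beside a cortical 165 CPM (121 to 218). The MD ratio of 3.02 thus rests on few medullary barcodes, and its interval leaves out the spread between them. Ndst1 was also higher in medulla, by 2.52-fold in TAL-α (2.34 to 2.71), 1.62-fold in TAL-β (1.40 to 1.88) and 2.39-fold in TAL-γ (1.99 to 2.90). In MD the Ndst1 ratio was 1.24 with an interval from 0.659 to 2.18. Without clusters of other cell types the TAL-γ ratio of Ndst1 was 1.95 (1.58 to 2.43). For every gene, the TAL-γ ratio between the libraries sets unlike clusters side by side. In cortex 177 of the 277 TAL-γ barcodes sat in cluster 2 with TAL-β barcodes, and in medulla 908 of 2418 sat in the TAL-γ-like cluster 5. Between cluster 1 of medulla and cluster 1 of cortex the Ndst1 ratio was smaller, at 1.34 (1.18 to 1.51). Cluster 6 of medulla stood at 1.26 (1.07 to 1.49) over cortical cluster 2 and at 2.16 (1.70 to 2.78) over cortical cluster 4. For reference, the median log2 ratio of all genes tested was -0.11 in TAL-α and -0.09 in TAL-β.

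With all TAL barcodes, Gpc4 was lower in medulla, at ratios of 0.494 in TAL-α, 0.617 in TAL-β, 0.367 in TAL-γ and 0.501 in MD. Without clusters led by other cell types the ratios were 0.772 in TAL-α (0.713 to 0.837), 0.895 in TAL-β and 0.525 in TAL-γ (0.438 to 0.634). The TAL-β interval then included 1 (0.784 to 1.02). Between cluster 6 of medulla and cluster 2 of cortex, the Gpc4 ratio was 0.976 (0.863 to 1.10). Between cluster 1 of medulla and cluster 1 of cortex it was 0.971 (0.866 to 1.09). Gpc3 was at a ratio of 0.595 in TAL-α (0.545 to 0.649), or 0.514 without clusters of other cell types, and its intervals included 1 in the other classes. Between cluster 1 of medulla and cluster 1 of cortex the Gpc3 ratio was nearer 1, at 0.829 (0.736 to 0.934). In TAL-β its ratio turned from 1.08 to 0.696 with TAL-γ asked first, and in TAL-γ from 0.824 to 1.48 with TAL-β at 1 or more counts of Tmem52b. Hs6st1 was at 1.51 in TAL-α (1.36 to 1.68), or 1.70 without clusters of other cell types, and between 1.05 and 1.14 in the others, with intervals that included 1. Ndst4 was at 1.49 in MD (1.28 to 1.71), beside 1256 and 1447 CPM in the MD-like clusters. In TAL-α its ratio was 0.169 (0.138 to 0.204), or 0.265 without barcodes of the MD-like clusters. The TAL-α barcodes outside the MD-like clusters were at 21.4 and 5.68 CPM. Of the 163 cortical counts behind that level, 70 sat in cluster 8 and 25 in cluster 10, which carried some MD markers. Between cluster 1 of medulla and cluster 1 of cortex the Ndst4 ratio was 1.25, with an interval that included 1 (0.780 to 2.02). In TAL-β the Ndst4 ratio was 0.0930 from 2 medullary counts, and 0.292 without Scrublet doublets.

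Some clusters, chosen after their values were seen, were also compared between the libraries for Gpc5. Medulla cluster 1, which its markers do not name but which shares Chst8 and Lipg among its leading genes with cortex cluster 1, exceeded the latter by 2.25-fold (1.77 to 2.86). The MD-like clusters differed 1.61-fold (1.18 to 2.15), and the TAL-β-like cluster 6 of medulla exceeded cortical clusters 2 and 4 by 1.62-fold (1.38 to 1.91) and 6.96-fold (4.87 to 10.3). Deposited clusters were made on all genes, these included.

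**Figure D5:**
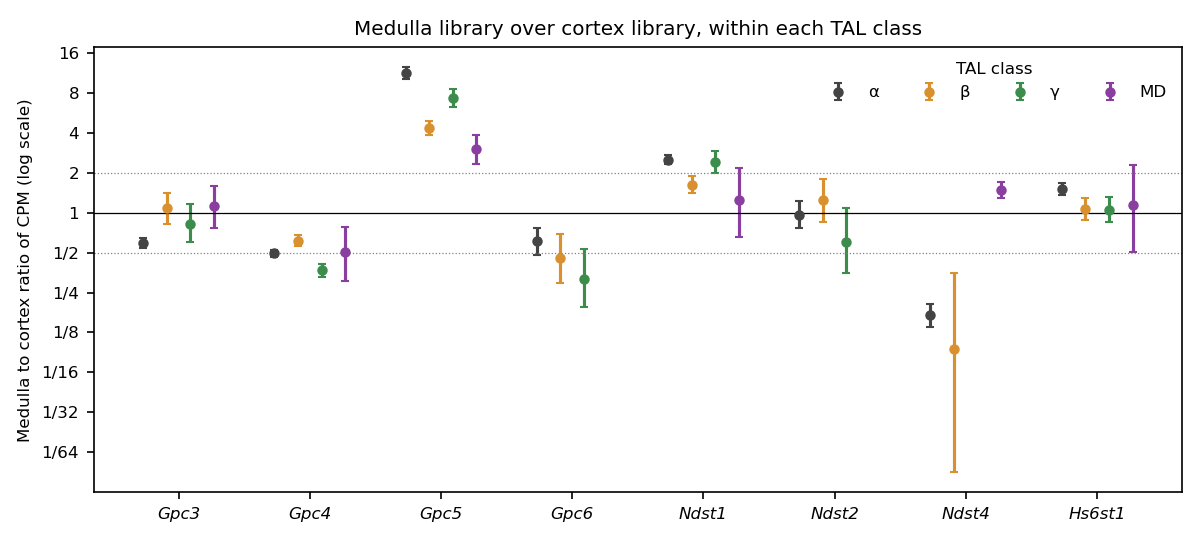
Ratio of CPM in the medulla library to the cortex library (log scale) for the genes and classes that passed the count filter, with the sparse Ndst3 and Hs6st2 not drawn, within TAL-α (dark grey), TAL-β (orange), TAL-γ (green) and MD (purple). Bars are 95% intervals for counting error; the solid line is 1 and the dotted lines are 2 and 1/2. Gpc5 lies between 3.02 and 11.3 in all 4 classes, and Gpc4 at 0.617 or below. TAL barcodes of clusters led by other cell types are included here, and without them the Gpc4 ratio in TAL-β was 0.895 (0.784 to 1.02).

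Genes with a pattern like these were sought over the 26 deposited clusters by Pearson correlation of log2(CPM + 1) among 6141 genes, as a description, since clusters of a library share depth and free RNA. Ndst4 was most like Nos1 (r = 0.965), Unc5d (0.926) and Pappa2 (0.923), of which Nos1 and Pappa2 define the MD class. Gpc4 was most like Slc25a21 (0.968), Gpc3 like Dnah12 (0.919), Ndst1 like Nccrp1 (0.961), Gpc5 like Filip1l (0.880) and Hs6st1 like Ano4 (0.810). Among the genes themselves, Gpc5 went with Ndst1 (0.733), Ndst1 with Hs6st1 (0.743) and Gpc3 with Ndst4 (0.668), whereas Ndst4 and Ndst1 ran opposite (-0.570), as did Gpc4 and Gpc5 (-0.616). The 26 clusters pool both libraries, between which Gpc5, Ndst1 and Gpc4 differed, and include proximal tubule-like clusters high in Gpc4. How much of these values comes from that was not tested.

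Detection in the same barcode was compared with the product of shares for 8 pairs of the genes. In medullary TAL-γ, 38.7% of barcodes had counts of both Gpc5 and Ndst1, beside a product of shares of 37.1%. For the same pair in medullary TAL-α the values were 20.9% and 18.3%. In cortical TAL-β, Gpc4 and Ndst1 were found together in 14.5%, beside 12.5%, and in cortical MD, Ndst4 and Gpc3 in 23.7%, beside 22.1%. For Gpc3 and Gpc4 in cortical TAL-α the values were 8.55% and 8.67%. Deeper barcodes hold more counts of every gene, which these shares do not take out.

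The rest of the heparan sulfate pathway was followed in a list of 39 further genes, all 39 of them in the tables. In cortical MD, 29 were tested, 2 were higher by 2-fold and 3 lower, where 11.8% of all genes tested were past 2-fold. Extl1, a chain-elongating glycosyltransferase, was at 30.6 CPM in MD and 1.43 CPM in the other TAL barcodes, a ratio of 21.4 (12.6 to 38.0) from 71 counts in all. Sulf2, which removes 6-O-sulfates outside the cell, was at 21.6 against 79.0 CPM, a ratio of 0.273 (0.190 to 0.381), and the 3-O-sulfotransferase Hs3st3b1 was at a ratio of 0.369 (0.199 to 0.628).

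In medullary MD, 16 were tested and 1 was higher and 3 lower (21.7% of all genes), all in 78 barcodes. The synthases of the sulfate donor parted there, with Papss1 at 175 against 75.6 CPM and Papss2 at 6.02 against 82.6 CPM, the latter from 1 count. Hs3st3a1 also had 1 count, at 6.02 against 69.2 CPM. In the larger cortical MD class, neither Papss1 nor Papss2 was among the genes past 2-fold.

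In cortical TAL-α, 37 were tested, with 2 higher and 3 lower (6.95% of all genes past 2-fold), and in cortical TAL-β 36, with 2 higher and 3 lower (6.61%). TAL-α had Extl1 at 2.15 against 6.93 CPM and the syndecan core protein Sdc1 at 3.42 against 1.28 CPM. TAL-β had Extl1 at 0.382 against 6.60 CPM, from 2 counts, and Sdc1 at 1.15 against 2.96 CPM. In both comparisons the other barcodes included MD, where Extl1 was high, and the Extl1 level of TAL-α lay above that of TAL-β. In cortical TAL-γ, 27 were tested, with 1 higher and 1 lower (5.77%). The medullary counts were 0 higher and 1 lower of 36 in TAL-α (5.33%), 1 and 0 of 27 in TAL-β (6.67%), and 1 and 1 of 33 in TAL-γ (5.36%). Sulf2 stood out in medulla, at 55.2 CPM in TAL-β, a ratio of 3.07 to the others (2.42 to 3.85), and at 4.65 against 28.5 CPM in TAL-γ (ratio 0.163, 0.108 to 0.237). Col18a1, the core of collagen XVIII, was at 33.0 against 15.7 CPM in TAL-γ. The median log2 ratio of the list lay between -0.06 and 0.08 in all 8 class comparisons, beside -0.06 to 0.02 for all genes tested.

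Between the libraries, medulla over cortex, 1 was higher and 6 lower of 36 tested in TAL-α (16.2% of all genes past 2-fold), 1 and 2 of 29 in TAL-β (13.3%), 2 and 2 of 27 in TAL-γ (14.6%), and 0 and 2 of 14 in MD (9.99%), shares near those of all genes. Xylt1, the xylosyltransferase that starts the chain on the core protein, was lower in all 4 classes, at ratios of 0.317 in TAL-α, 0.296 in TAL-β, 0.221 in TAL-γ and 0.292 in MD. Sulf2 was at 0.316 in TAL-α and at 0.0632 in TAL-γ (0.0394 to 0.0992). Most cortical TAL-γ barcodes, 177 of 277, sat in cluster 2 with TAL-β barcodes, and within medulla Sulf2 was far higher in TAL-β than in TAL-γ. The TAL-γ ratios between the libraries thus do not compare like barcodes. Hs3st3a1 was higher in medulla, at 72.3 against 29.0 CPM in TAL-γ and at a ratio of 2.30 in TAL-β.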

How the data were processed

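Nuclei were profiled with the PIPseq T10 3′ kit, and per the study's methods the authors aligned reads to GRCm39 with PIPseeker 3.3.0. The submitters' processing notes also name bcl2fastq and Seurat 4.4.0. The deposited values are raw counts per gene and barcode, from before the authors' removal of doublets and free RNA, and the cluster numbers were deposited by the authors. Whether counting used strand is not given in the sources used here. Without correction, free RNA and doublets remain in every level.

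The 2 libraries were taken as deposited, with no further filter on barcodes, and 5442 and 8121 barcodes carried totals of 16457300 and 20947211 counts. Counts were summed per class or cluster (Python 3.11.15, numpy 2.4.6, scipy 1.17.1, pandas 2.3.3) and divided by the class total. Levels have exact Poisson, shares exact Clopper-Pearson and ratios exact conditional binomial 95% intervals, all for counting error only. A count of 0 was read as allowing up to 3 counts. With 1 library per region there is no replicate, no test between regions or classes was made and no p-value is given. Shares were also taken after thinning barcodes to 1000 counts, leaving out shallower ones.

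The members, marker lists and the pathway list were chosen with earlier results of these data known. The text names the 10 members, up to 3 pathway genes per class comparison by size of the fold among those past 2-fold, and the genes most like a member among genes with at least 1000 counts. Clusters were named from at least 3 raised markers of a list. All pairs of clusters given with a ratio were chosen after their values were seen, and the intervals do not allow for that choice. The ratio calculation was tested on simulated class totals with Poisson error only, which says nothing about spread between barcodes. Alternatives covered doublets (Scrublet in scanpy 1.11.5), clusters of other cell types, class thresholds and their order, depth, the mean over barcodes, the gene filter and the fold.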

Additional observations from a re-analysis of the deposited data

Results flagged for a closer look

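Gpc5 in MD barcodes went opposite ways against the other TAL barcodes of the library. The ratio was 2.52 in cortex (2.21 to 2.88) and 0.695 in medulla (0.557 to 0.857), where the other barcodes include the high TAL-γ class and 7 of the 78 MD barcodes held 37 of the 88 counts. Hs6st1 in TAL-β did so as well, at 1.20 in cortex (1.06 to 1.36) and 0.816 in medulla (0.685 to 0.966). Both were picked out because their intervals lie on opposite sides of 1. The difference between the libraries was not tested in either case, since each region has 1 library.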

How the results depend on the processing

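No paired analysis was possible because each region has 1 library, and for the same reason no library could be left out. Of 12 planned settings and 1 added after seeing the data, the TAL-β ratio of Gpc4 in medulla stayed within counting error in 13 of 13 (1.61 to 1.74). In cortex that ratio was 1.44 without clusters of other cell types and 1.46 with 1500 to 4000 counts per barcode. For the same settings the Ndst1 ratio of MD in cortex was 0.458 and 0.418, and it was 0.479 as a mean over barcodes. The Ndst4 ratio of MD in cortex was 26.2 without Scrublet doublets, 18.9 without clusters of other cell types, 13.9 with MD at 5 or more counts, 18.2 as a mean over barcodes and 53.1 without barcodes of the MD-like cluster under the threshold, the added setting. In medulla it was 138 with MD at 5 or more counts and 289 in the added setting. The Gpc5 ratio of TAL-γ in medulla was 2.68 without Scrublet doublets, 2.63 with TAL-β at 1 or more counts of Tmem52b, 2.40 with TAL-γ at 2 or more counts of Tmem207, 2.21 with TAL-γ asked before TAL-β and 2.63 with 1500 to 4000 counts. The Ndst1 ratio of TAL-γ in medulla was 1.03 with TAL-γ asked first. Scrublet's own threshold marked 3 medullary barcodes, so the top-scoring 391 were left out there, and 359 in cortex.

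At 1.5-fold the genes past the fold were 5 in cortical TAL-α, 6 in cortical MD, 5 in medullary TAL-β and 5 in medullary TAL-γ. With TAL-γ asked first they were 4 in cortical and 5 in medullary TAL-β. They were 4 in cortical MD and 4 in medullary TAL-γ with 1500 to 4000 counts. With an expected count of 20 they were 1 in medullary MD. A cut-off of 1.5-fold is looser for all genes, not only for these. Numbers tested and shares of all genes are not given here for these settings, so nothing is read from the counts. Of 1235 values of the other 95 ratios, 1143 stayed within counting error, 91 moved past it and 1 reversed. The reversed value was the medulla to cortex ratio of Gpc6 in TAL-γ, from 0.316 to 1.20 with TAL-β at 1 or more counts of Tmem52b. The cause was not tested. Only ratios of at least 2 or at most 0.5 in the main setting could be called reversed. Ratios nearer 1 that crossed 1, such as those of Gpc3 between the libraries, were counted as within counting error or as moved. Thinning lowered 76 of 80 shares. Depth limits Ndst3 and Hs6st2 in every class and most genes in the 78 medullary MD barcodes.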
